A study of Homo sapiens with 6 samples.

Results

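The genes described here are 39 of the lysosome, the acidic organelle in which cells break down proteins, glycans and lipids. They were found by their symbols in a deposited table of 19960 genes, in which each of the 39 had 1 row. The table holds RNA-seq values of MKN28, an established human gastric cancer cell line, in 3 libraries of stable cells that express a scrambled hairpin RNA (shSCR) and 3 of stable cells that express a hairpin against LTBP1 (shLTBP1). Both groups were the same line, carried a hairpin plasmid and were grown in the same serum-containing RPMI medium, and they differed, per the labels, only in the hairpin. The product of LTBP1 holds latent TGF-beta in the matrix outside cells, and the comparison addresses what differs in RNA when its gene is knocked down. The labels do not say whether a stable line was 1 clone or a pool, nor whether libraries with the same hairpin were from separate cultures. The p-values therefore cover the spread among these 6 libraries alone, and that spread may be technical.

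As background, hydrolases of the lysosome are made in the endoplasmic reticulum, tagged with mannose 6-phosphate and carried to the organelle by receptors. The vacuolar proton pump acidifies the lumen, in which the cathepsins and other enzymes work, and a coat of glycosylated membrane proteins such as LAMP1 shields the limiting membrane. The transcription factors TFEB, TFE3 and MITF bind a palindromic E-box, called the CLEAR element, near the start of many lysosomal genes, and they are held in the cytoplasm when mTORC1 is active on the lysosomal surface. Cathepsins D, B and L have long been studied in gastric and other carcinomas, where they can also be secreted.

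The values are normalized read counts (DESeq2, by the authors). They sum to between 30479879 and 30941103 per library, so they no longer show sequencing depth. LTBP1 itself had normalized counts of 977, 964 and 1011 in shSCR and 59.02, 66.7 and 49.02 in shLTBP1, and 5.92% of the control mean remained (limma adjusted p = 1.18e-08; exact two-sided permutation test, p = 0.1, the smallest that 3 against 3 libraries allow). LTBP1 lies on chromosome 2, and its log2 fold change was -4.07, or -3.48 with the median of the genes around it (-0.58) subtracted. The cells carried epithelial markers: EPCAM was at 21679 ± 972 in shSCR and 9981 ± 466 in shLTBP1 (SD, n = 3 each), CDH1 was at 18581 ± 1054 and 14643 ± 866, and the keratins KRT8, KRT18 and KRT19 were higher than CDH1 in both groups. EPCAM also lies on chromosome 2, and its log2 fold change was -1.12, or -0.55 with the median of the genes around it (-0.57) subtracted. Of the 9 epithelial markers listed 8 were tested, of which 3 rose, 3 fell (EPCAM, CDH1 and KRT18) and 2 did not pass. MUC1 rose from 417 ± 33.2 to 1158 ± 81.2 (SD, n = 3 each), and CLDN4 and KRT19 rose by 0.27 and 0.22 on the log2 scale. TFF1 was at 1.88 or less in every library. CD68 is also a macrophage marker, but PTPRC, CD14, CSF1R, CD163 and AIF1 had values of 8.56 or less in every library, and TYROBP was at 0 in all 6. CD52, a lymphocyte and monocyte antigen on the same list, rose with CD68, from 94.4, 80.7 and 97.97 in shSCR to 125, 184 and 126 in shLTBP1 (log2 fold change 0.65, limma adjusted p = 0.012). ITGAM was at 14.8 ± 5.57 and 18.2 ± 8.80 and did not pass (limma adjusted p = 0.686). Of the 12 macrophage and blood markers 4 passed the expression filter, and the sum of all 12 ran from 118 to 1052 in shSCR and from 148 to 231 in shLTBP1. The value of 1052 came from shSCR replicate 3, in which the globin genes HBA1 and HBB stood at 803 and 132, whereas HBA1 was at 11.99 or less in the other libraries. Of 6 fibroblast markers LUM was listed at 0 in every shSCR library and at 41.5, 51.99 and 36.6 in shLTBP1, and COL1A1 fell from 1213 ± 123 to 805 ± 121. The part of these blood and fibroblast markers in the results for lysosomal genes was not tested. In such bulk RNA, fewer cells that express a gene and less RNA per cell cannot be told apart.

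The CLEAR element was looked for in RefSeq promoter windows (GRCh38.p14) of 250 bases before and 50 bases after each annotated start, of which 28 members have at least 1. The members without a window were LAMP2, PSAP, SGSH, ATP6V1H, ASAH1, CTSS, CTSB, ARSA, HEXA, ATP6V1A and NAGLU. The words searched were 3 nested palindromes, so that each reads the same on both strands: CACGTG, TCACGTGA, and TCACGTGA with a G before and a C after it. The 8-letter word TCACGTGA stood in windows of 5 of the 28 members (17.9%), against 1.18% of all 27305 genes with a window. The 10-letter form stood in 2 of them, GAA and MCOLN1 (7.14%, against 0.421% of all genes), and the E-box CACGTG in 8 (28.6%, against 8.77%). The 5 windows are printed because their genes passed the test below, 4 in the higher and 1 in the lower direction. Each line gives the 250 bases before the annotated RefSeq start, 5′ to 3′ on the gene's strand, with TCACGTGA in capitals. In GENCODE release 29, CTSA, ATP6V0D1 and GAA begin further upstream. The CTSA stretch therefore lies within that gene model, and those of ATP6V0D1 and GAA partly overlap theirs.
GAA, chr17:80101331-80101580, plus strand: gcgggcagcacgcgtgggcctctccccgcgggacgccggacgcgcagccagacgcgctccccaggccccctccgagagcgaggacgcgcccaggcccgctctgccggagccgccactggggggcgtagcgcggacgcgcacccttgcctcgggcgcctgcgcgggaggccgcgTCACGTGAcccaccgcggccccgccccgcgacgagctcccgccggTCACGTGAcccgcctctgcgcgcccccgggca
MCOLN1, chr19:7522374-7522623, plus strand: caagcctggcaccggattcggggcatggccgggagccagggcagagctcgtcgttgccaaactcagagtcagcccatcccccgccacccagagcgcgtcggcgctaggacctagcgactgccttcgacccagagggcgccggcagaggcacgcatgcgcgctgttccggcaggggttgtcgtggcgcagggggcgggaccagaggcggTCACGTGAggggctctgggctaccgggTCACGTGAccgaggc
CTSA, chr20:45891085-45891334, plus strand: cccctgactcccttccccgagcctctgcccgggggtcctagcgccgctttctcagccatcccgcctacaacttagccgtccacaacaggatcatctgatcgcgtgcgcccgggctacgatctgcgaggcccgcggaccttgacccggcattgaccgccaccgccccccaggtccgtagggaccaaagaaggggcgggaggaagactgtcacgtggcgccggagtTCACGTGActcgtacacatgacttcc
ATP6V0D1, chr16:67481158-67481407, minus strand: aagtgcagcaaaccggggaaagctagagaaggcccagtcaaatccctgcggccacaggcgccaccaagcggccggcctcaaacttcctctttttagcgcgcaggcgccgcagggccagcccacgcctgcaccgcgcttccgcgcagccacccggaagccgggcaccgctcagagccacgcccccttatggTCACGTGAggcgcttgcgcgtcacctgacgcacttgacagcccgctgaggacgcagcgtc
LAMP1, chr13:113296989-113297238, plus strand: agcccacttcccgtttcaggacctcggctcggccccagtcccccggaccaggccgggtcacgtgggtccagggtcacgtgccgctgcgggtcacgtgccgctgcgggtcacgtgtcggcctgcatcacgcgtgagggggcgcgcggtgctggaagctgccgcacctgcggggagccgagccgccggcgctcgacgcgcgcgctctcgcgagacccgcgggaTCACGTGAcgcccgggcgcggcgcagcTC
The words began at positions -77 and -32 before the RefSeq start of GAA, both within the 10-letter form. For MCOLN1 they began at -42 and -15, the latter within it. They began at -26 for CTSA, at -60 for ATP6V0D1, and at -29 and -2 for LAMP1, where the second copy runs past the printed stretch. A match is a description of letters and does not show that a factor binds there.

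Among the lysosomal genes, rises outnumbered falls. Of the 38 that had a mean of at least 10, 21 rose in shLTBP1, 8 fell and 9 did not pass (limma adjusted p under 0.05 over 12789 genes). Over all tested genes 53.1% passed, 26.3% as higher and 26.8% as lower. The median log2 fold change of the 38 was 0.164, and that of all tested genes 0.0038. The 3 values of one group lay wholly above or below those of the other for 33 of the 38, and for 60.8% of all tested genes. Most changes were small: SGSH and CTSL rose and MITF fell by at least 1 on the log2 scale, a size that 4.54% of all tested genes reached as higher and 4.39% as lower. Summed over the 39 genes, the normalized counts made up 0.566%, 0.565% and 0.571% of the total in shSCR and 0.672%, 0.683% and 0.653% in shLTBP1, so that the groups did not overlap. Without CTSD, PSAP and LAMP1 the shares were 0.329%, 0.321% and 0.326% in shSCR and 0.358%, 0.359% and 0.354% in shLTBP1, a smaller difference. Without shSCR replicate 3, the library with the globin reads, 16 of the 38 were higher and 8 lower. Without shSCR replicate 1 or 2 there were 18 and 17 higher, and again 8 lower. CTSD, PSAP and LAMP1 together held 41.9% to 43.2% of that sum in shSCR and 45.8% to 47.4% in shLTBP1.

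**Figure D1:**
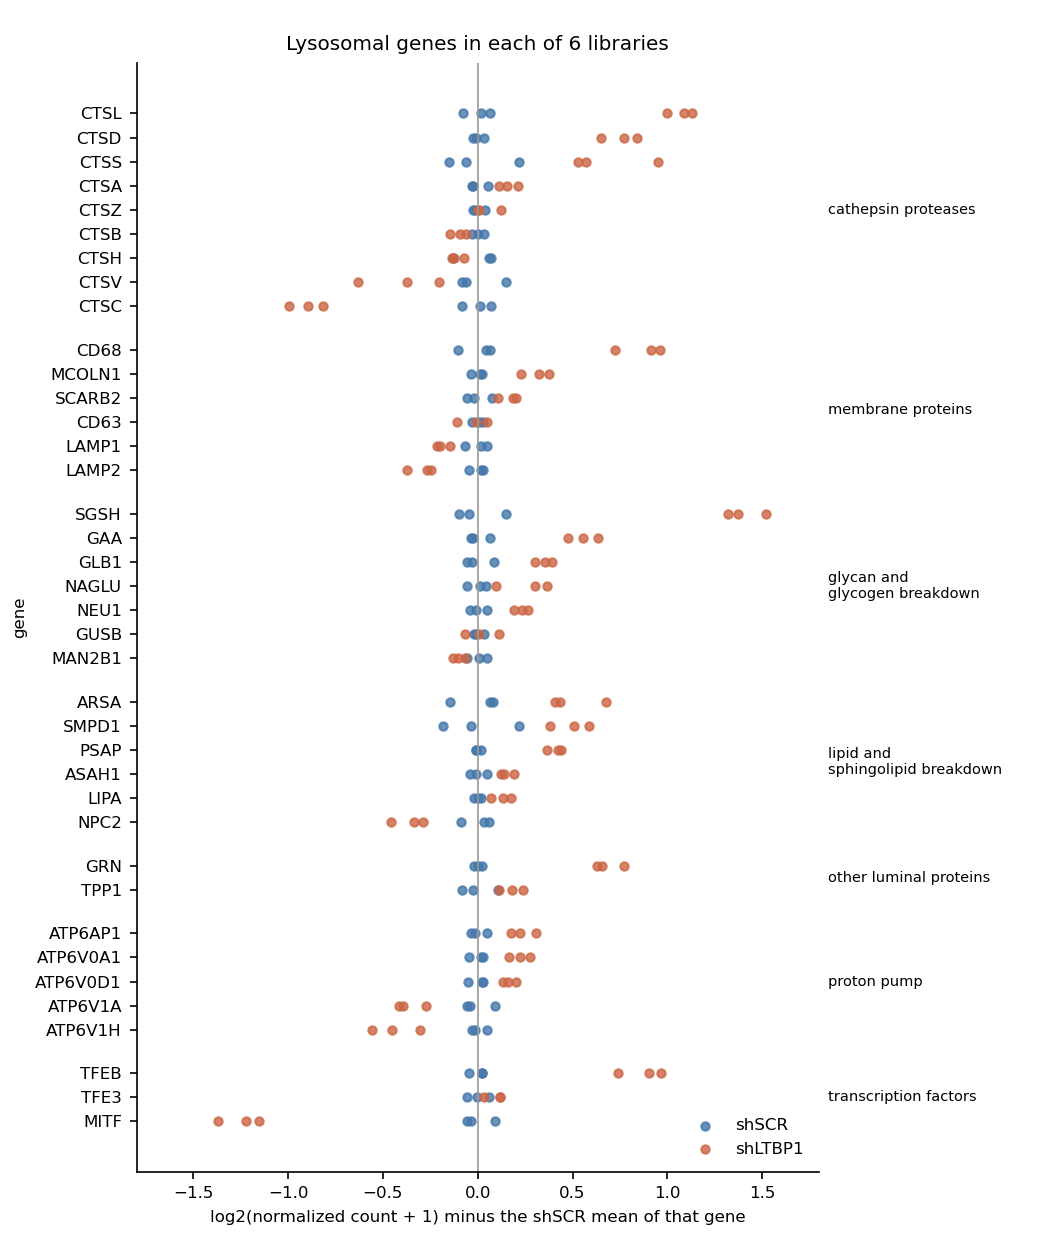
Each row is 1 of the 38 tested lysosomal genes and each point 1 library (3 shSCR, 3 shLTBP1); the horizontal axis is log2(normalized count + 1) minus the mean of the gene in shSCR, and rows are grouped by role. The shLTBP1 points of SGSH, CTSL, TFEB, CD68, CTSD and GRN lie well to the right of the shSCR points, and those of MITF and CTSC to the left.

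The cathepsins moved apart from each other. Of 9, 3 rose (CTSL, CTSD and CTSA), 2 fell (CTSC and CTSV) and 4 did not pass. The share that passed, 55.6%, was close to the 53.1% of all tested genes. CTSL, a cysteine endoprotease, had normalized counts of 2614, 2529.7 and 2367 in shSCR and 4993, 5477 and 5317 in shLTBP1. The lowest shLTBP1 value was well above the highest shSCR value. The means were 2504 ± 126 and 5262 ± 246 (SD, n = 3 each), and the log2 fold change was 1.07 ± 0.0557 (standard error; limma adjusted p = 3.77e-07). CTSD, the main aspartic protease of lysosomes, stood at 21612, 21875 and 22528 in shSCR and 37607, 39429.9 and 34564 in shLTBP1. The groups did not overlap, and the log2 fold change was 0.76 ± 0.0519 (limma adjusted p = 1.9e-06). A readthrough gene model, AC068580.4, covers 41.7% of the exon bases of CTSD on the same strand, and its own values were 2167, 2049.6 and 1922 in shSCR and 1710.0, 1831 and 1632 in shLTBP1, so how reads were divided between them bears on the level of CTSD. CTSA, a carboxypeptidase that also protects beta-galactosidase and neuraminidase, rose by 0.16 on the log2 scale (limma adjusted p = 0.0146). That call was lost without shSCR replicate 1 (limma adjusted p = 0.0588) or replicate 2 (0.0576).

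CTSC, also known as dipeptidyl peptidase I, which activates serine proteases of immune cells, fell. Its values were 4322, 3881 and 4151 in shSCR and 2064, 2333 and 2208 in shLTBP1. The highest shLTBP1 value was below the lowest shSCR value, and the log2 fold change was -0.903 ± 0.0615 (limma adjusted p = 1.79e-06). CTSV, a close relative of CTSL on the same arm of chromosome 9, went the other way from CTSL, with values of 693, 813 and 702 in shSCR and 474, 638 and 566 in shLTBP1. Its log2 fold change was -0.403 (limma adjusted p = 0.0133), and -0.33 (limma adjusted p = 0.0547) without shSCR replicate 2. CTSB, the most studied cysteine cathepsin of tumours, was at 9269.6 ± 202 and 8651 ± 257. Every shLTBP1 value of CTSB lay below every shSCR value, but it did not pass (limma adjusted p = 0.0726). CTSZ, a carboxypeptidase, was at 488 ± 10.9 and 503 ± 24.8 (limma adjusted p = 0.643). CTSH, an aminopeptidase, was at 9610.2 ± 727 and 8885 ± 205 (limma adjusted p = 0.131); without shSCR replicate 2 its log2 fold change was -0.17 (limma adjusted p = 0.0183). CTSS, typical of antigen-presenting cells, was close to the minimum, at 13.4, 10.1 and 10.8 in shSCR and 22.8, 17.4 and 16.8 in shLTBP1. Its groups did not overlap, but it did not pass (log2 fold change 0.68, limma adjusted p = 0.111).

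**Figure D2:**
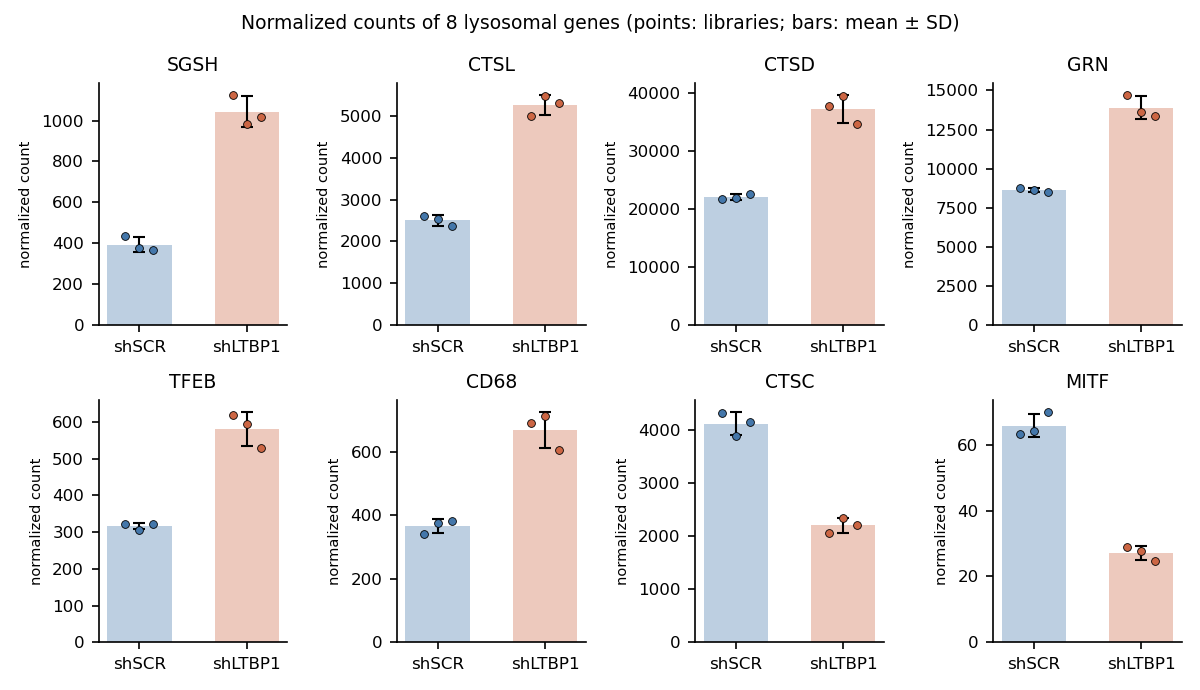
Normalized counts of 8 lysosomal genes in shSCR (blue) and shLTBP1 (orange); points are libraries, bars the mean of 3 and whiskers the SD. SGSH, CTSL, CTSD, GRN, TFEB and CD68 are higher and CTSC and MITF lower in all 3 shLTBP1 libraries.

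The inhibitors of cathepsins, a list of 11 genes of which 8 were tested, also changed in both directions: 4 rose, 3 fell and 1 did not pass (87.5% called, beside 53.1% of all tested genes). The median of their absolute log2 fold changes was 1.06, beside 0.403 for the 9 cathepsins and 0.256 over all tested genes. CST1, a secreted cystatin, rose from 3399 ± 20.1 to 9580.1 ± 248 and the serpin SERPINB13 from 5.81 ± 0.403 to 65.3 ± 6.76 (SD, n = 3 each). CSTB, the intracellular cystatin B, fell from 20641 ± 647 to 10863 ± 817, with a log2 fold change of -0.93. CSTB lies on chromosome 21, where the neighbouring genes had a median of -0.399, and its log2 fold change was -0.53 with that median subtracted. The secreted cystatin CST6 fell by 1.21 on the log2 scale.

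Membrane proteins of the lysosome also divided: 3 of 6 rose, 2 fell and 1 did not pass (83.3% called, beside 53.1% of all tested genes). CD68, a heavily glycosylated member of the LAMP family, had values of 339.99, 376 and 382 in shSCR and 689, 713 and 605 in shLTBP1. The groups did not overlap, and the log2 fold change was 0.87 ± 0.0894 (limma adjusted p = 2.87e-05). Another gene model on its strand, AC016876.2, covers 81.7% of the exon bases of CD68, so its reads may be shared. No values under that name were found among the deposited genes. MCOLN1, the calcium channel TRPML1, rose with values of 794, 825 and 820.1 in shSCR and 1016, 1055 and 953 in shLTBP1 (log2 fold change 0.31, limma adjusted p = 0.00264). SCARB2 (LIMP-2), which carries glucocerebrosidase to lysosomes, rose by 0.16 on the log2 scale (limma adjusted p = 0.0198). SCARB2 did not pass without shSCR replicate 2, shSCR replicate 3 or shLTBP1 replicate 1 (limma adjusted p = 0.0667, 0.0821 and 0.0697).

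The abundant coat proteins LAMP1 and LAMP2 fell. LAMP1 was at 25036, 27062 and 26499 in shSCR and 22524, 23685 and 22815 in shLTBP1, and the groups were separate though close (log2 fold change -0.19 ± 0.0441, limma adjusted p = 0.00552). LAMP2, which also serves chaperone-mediated autophagy, was at 5638, 5583 and 5352 in shSCR and 4586, 4267 and 4661 in shLTBP1 (log2 fold change -0.295, limma adjusted p = 0.000726). The tetraspanin CD63 did not pass, with means of 8439 ± 175 and 8319.6 ± 461 and overlapping values (limma adjusted p = 0.733). Among 22 other tested lysosomal membrane proteins, 10 rose and 4 fell (median log2 fold change 0.14; 63.6% called, beside 53.1% of all tested genes). SLC29A3, a nucleoside transporter, rose from 282 ± 13.5 to 701 ± 9.88 and CLN3, mutated in Batten disease, from 1658 ± 78.1 to 3068 ± 87.4 (SD, n = 3 each). OSTM1 and LAPTM4B fell, with log2 fold changes of -0.58 and -0.57.

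Enzymes that break down glycans and glycogen rose or did not pass, and none of the 7 tested fell. Of the 7, 71.4% were called higher, beside 26.3% of all tested genes called higher and 26.8% called lower. SGSH, the sulfamidase that removes N-linked sulfate from heparan sulfate, had the highest log2 fold change of the 38 genes. Its values were 434, 379 and 366 in shSCR and 1127, 983 and 1017 in shLTBP1, so that the groups lay far apart. The means were 393 ± 36.1 and 1042 ± 75.4 (SD, n = 3 each) and the log2 fold change 1.405 ± 0.0880 (limma adjusted p = 1.07e-06). SLC26A11, whose exons overlap SGSH from the other strand, was also higher, at 302, 292 and 276 in shSCR and 595, 657 and 622 in shLTBP1. With CARD14 it covers 2.4% of the exon bases of SGSH. GAA, the acid alpha-glucosidase that digests glycogen, rose with values of 1103, 1179 and 1108 in shSCR and 1756, 1660.3 and 1571 in shLTBP1 (log2 fold change 0.56, limma adjusted p = 4.94e-05). GLB1, the lysosomal beta-galactosidase, had values of 1580.0, 1709.7 and 1552 in shSCR and 2066, 1992 and 2112 in shLTBP1 (log2 fold change 0.35, limma adjusted p = 0.000612). In both of these genes the lowest shLTBP1 library was above the highest shSCR library.

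NEU1, the sialidase that is held by CTSA, rose by 0.23 on the log2 scale (limma adjusted p = 0.00472), and NAGLU, another enzyme of heparan sulfate breakdown, by 0.26 (limma adjusted p = 0.0384). The call for NAGLU was lost without any 1 of the shSCR libraries, and without replicate 2 or 3 of shLTBP1 (limma adjusted p = 0.0816, 0.111, 0.0635, 0.111 and 0.0972). GUSB, the beta-glucuronidase often used as a reference gene, was at 655 ± 12.6 and 664 ± 42.1 (limma adjusted p = 0.85). The alpha-mannosidase MAN2B1 was at 2723 ± 99.03 and 2541 ± 57.3. Its shLTBP1 values all lay below its shSCR values, though narrowly, and it did not pass (limma adjusted p = 0.117). HEXA, a subunit of beta-hexosaminidase, was the member below the minimum: it is listed at 0 in 3 libraries and at 1.08, 0.950 and 1.25 in shSCR replicate 1 and shLTBP1 replicates 1 and 3. An overlapping gene model on the same strand, AC009690.1, is also listed at 0 in all 6. GALC, the galactosylceramidase, named after its values were seen, is listed at 0 in every library too. Both enzymes are known as broadly expressed, and the annotation that was counted is not given in the sources used here. These values may therefore not show the level of either RNA, and no direction was drawn.

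In lipid and sphingolipid breakdown 4 of 6 rose, 1 fell and 1 did not pass (83.3% called, beside 53.1% of all tested genes). PSAP, the precursor of the saposins that assist sphingolipid hydrolases, had values of 26815, 26336 and 26318 in shSCR and 35852, 35494 and 34101 in shLTBP1. Its groups were far apart relative to their spread (log2 fold change 0.41 ± 0.0388, limma adjusted p = 1.7e-05). ARSA, which desulfates sulfatide, rose with values of 346, 343 and 297 in shSCR and 525, 444 and 436 in shLTBP1, and its log2 fold change was 0.51 (limma adjusted p = 0.00247). SMPD1, the acid sphingomyelinase, was at 522, 621 and 471 in shSCR and 803, 762 and 697 in shLTBP1 (log2 fold change 0.49, limma adjusted p = 0.00323). ASAH1, the acid ceramidase, rose by 0.15 on the log2 scale (limma adjusted p = 0.0223), and did not pass without shSCR replicate 1 (0.0702) or replicate 3 (0.0882).

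NPC2 fell. It hands cholesterol from the lumen to the membrane transporter NPC1, and its values were 3282, 3016 and 3341 in shSCR and 2545, 2628 and 2335 in shLTBP1 (log2 fold change -0.36 ± 0.0617, limma adjusted p = 0.000839). LIPA, the acid lipase that frees cholesterol from its esters, was at 1403, 1367 and 1384 in shSCR and 1518, 1455 and 1562 in shLTBP1. The groups of LIPA did not overlap, but it did not pass (log2 fold change 0.13, limma adjusted p = 0.0746), except without shLTBP1 replicate 2 (limma adjusted p = 0.037) and with upper quartile scaling (0.0337). Among 26 other tested hydrolases and their cofactors, 9 rose and 9 fell (median log2 fold change -0.12). That is 69.2% called, beside 53.1% of all tested genes. CTSO and the alpha-galactosidase GLA rose by 0.89 and 0.57 on the log2 scale, and the sulfatases ARSB and IDS fell, with log2 fold changes of -0.85 and -0.81. IDS, which acts in the same heparan sulfate pathway as SGSH and NAGLU, went from 8920.3 ± 177 to 5091 ± 339 (SD, n = 3 each).

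Of 2 other luminal proteins, both rose, beside 26.3% of all tested genes that were called higher. GRN, the precursor of the granulins, which is secreted and also brought to lysosomes, had values of 8763, 8633 and 8527 in shSCR and 14740.4, 13599.8 and 13341 in shLTBP1. The groups did not overlap (log2 fold change 0.68 ± 0.0472, limma adjusted p = 1.96e-06). TPP1, a tripeptidyl peptidase, rose by 0.18 on the log2 scale (limma adjusted p = 0.0326). TPP1 did not pass when shSCR replicate 2, shSCR replicate 3, shLTBP1 replicate 1 or shLTBP1 replicate 3 was left out (limma adjusted p = 0.125, 0.0927, 0.112 and 0.0672).

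All 5 members of the proton pump passed, 3 as higher and 2 as lower, beside 53.1% of all tested genes that passed. With the median of the genes around each subtracted, 1 was higher and 2 were lower. Of the membrane-embedded V0 sector, ATP6V0A1 rose by 0.22 (limma adjusted p = 0.00559) and ATP6V0D1 by 0.16 on the log2 scale (limma adjusted p = 0.0146, or 0.0653 without shSCR replicate 3), and the accessory protein ATP6AP1 by 0.23 (limma adjusted p = 0.00299). The 2 members of the ATP-hydrolysing V1 sector fell. ATP6V1A, the catalytic subunit, was at 2431, 2459 and 2693 in shSCR and 1920.5, 1890.5 and 2089.7 in shLTBP1 (log2 fold change -0.36, limma adjusted p = 0.000814). ATP6V1H, the regulatory subunit, was at 1924, 1949 and 2032 in shSCR and 1439.8, 1334 and 1592 in shLTBP1 (log2 fold change -0.44, limma adjusted p = 0.000502). In both, every shLTBP1 value lay below every shSCR value.

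The other pump subunits changed in both directions: of 18 tested, 8 rose and 7 fell (median log2 fold change 0.07). That is 83.3% called, beside 53.1% of all tested genes. Without shSCR replicate 1 or without shSCR replicate 3, 5 of the 18 rose. ATP6V1B1, the V1 subunit of acid-secreting epithelia, rose from 199 ± 21.2 to 1015 ± 67.3 and ATP6V1C2 from 73.7 ± 25.3 to 167 ± 23.4 (SD, n = 3 each), and both lie on chromosome 2, where neighbouring genes were lower (medians -0.61 and -0.47). ATP6V0A4 and ATP6V1E2 fell, with log2 fold changes of -1.29 and -0.77. ATP6V1E2 of the V1 sector fell like the V1 members, but ATP6V1B1 and ATP6V1C2 of V1 rose and ATP6V0A4 of V0 fell. The directions of the members by sector thus did not extend to the other subunits. ATP6V1E2 is also on chromosome 2 and was at -0.21 less the median of its neighbours (limma adjusted p = 0.327).

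The 3 transcription factors had 3 different outcomes. TFEB rose, with values of 321, 307 and 322 in shSCR and 619, 594 and 529 in shLTBP1. All 3 shLTBP1 values lay far above the shSCR values, and the log2 fold change was 0.87 ± 0.0855 (limma adjusted p = 2.11e-05). MITF, the low-expressed relative that is best known from pigment cells, fell, with values of 63.2, 64.2 and 69.9 in shSCR and 29.03, 27.6 and 24.8 in shLTBP1 (log2 fold change -1.25 ± 0.196, limma adjusted p = 0.000483). TFE3, with the highest level of the 3 in both groups per length of transcript, did not pass. Its values were 2091, 2017 and 2185 in shSCR and 2273, 2271 and 2145 in shLTBP1, and the groups overlapped (log2 fold change 0.0882, limma adjusted p = 0.192). These are RNA levels, and the activity of these factors is set largely by their place in the cell, which was not measured. Among the 5 members whose window holds TCACGTGA, 4 rose and LAMP1 fell, and their median log2 fold change was 0.165. Among the 23 with a window that lacks it, 12 rose, 4 fell and 7 did not pass, around a median of 0.164.

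On a list drawn up around the regulation of TFEB and TFE3, 24 genes were tested, of which 6 rose and 5 fell (median log2 fold change 0.09). The share that passed, 45.8%, was below the 53.1% of all tested genes. RRAGD, a RAG GTPase, rose by 0.61 and RRAGB by 0.71 on the log2 scale. RRAGB lost its call without shSCR replicate 2 or 3 or shLTBP1 replicate 1 or 3 (limma adjusted p = 0.0724, 0.0899, 0.0927 and 0.068). PPP3CA and PPP3R1, subunits of calcineurin, the phosphatase that releases TFEB to the nucleus, fell with log2 fold changes of -0.52 and -0.56. PPP3R1 lies on chromosome 2 and was at 0.0203 with the median of its neighbours subtracted.

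Of 18 genes that sort enzymes to lysosomes, 4 rose, 7 fell and 7 did not pass (median log2 fold change -0.03). The share that passed was 61.1%, beside 53.1% of all tested genes. The rises numbered 2 without shSCR replicate 2, shSCR replicate 3 or shLTBP1 replicate 3. SORL1, a sorting receptor, fell from 1088 ± 124 to 356 ± 41.5 and SORT1 (sortilin), which carries prosaposin and progranulin, from 11142 ± 77.5 to 6800.1 ± 479.7 (SD, n = 3 each). M6PR, the cation-dependent mannose 6-phosphate receptor, and the retromer subunit VPS29 rose by 0.200 and 0.22 on the log2 scale. IGF2R, the other mannose 6-phosphate receptor, fell from 13456 ± 145 in shSCR to 8601 ± 265 in shLTBP1 (log2 fold change -0.646, limma adjusted p = 1.15e-06). Of 27 tested autophagy genes, 8 were higher and 6 lower (median log2 fold change -0.0031). The share that passed, 51.9%, was close to the 53.1% of all tested genes, whose median was 0.0038. MAP1LC3A, an LC3 protein of the autophagosome, rose by 0.46 and the fusion protein STX17 by 0.42, while ATG12 and ATG16L1 fell, with log2 fold changes of -0.46 and -0.36. STX17 lies in the higher region of chromosome 9 and ATG16L1 on chromosome 2. Less the median of the genes around them, their log2 fold changes were 0.0189 and 0.18 (limma adjusted p = 0.837 and 0.179).

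**Figure D3:**
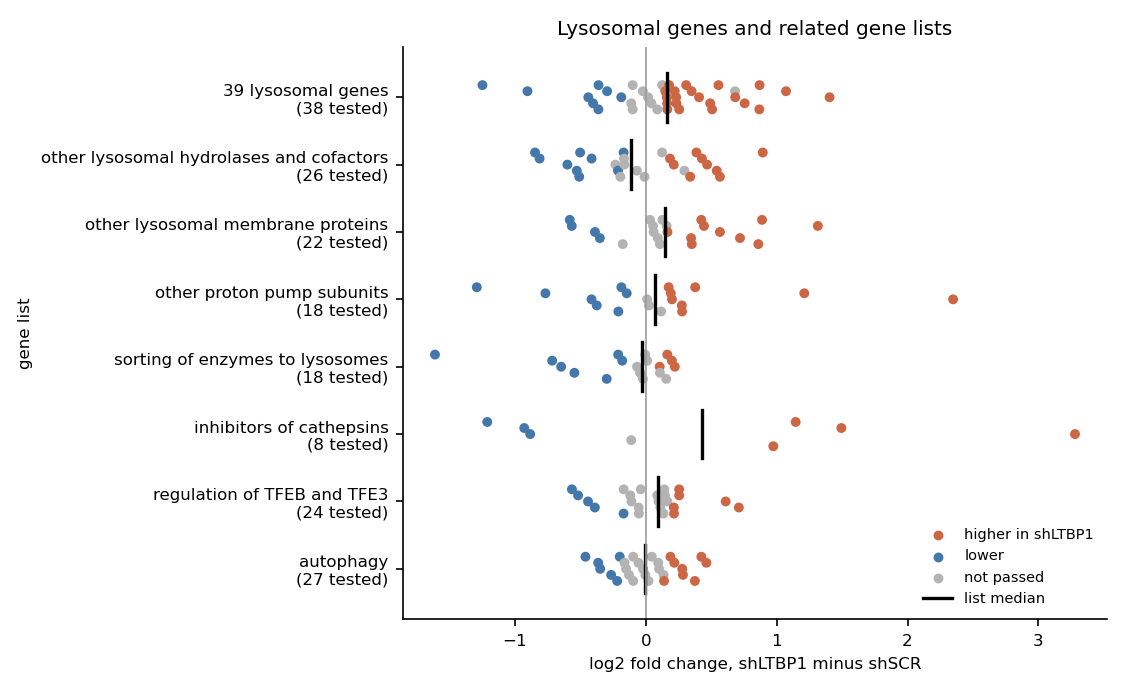
Log2 fold changes (shLTBP1 minus shSCR) of the lysosomal genes and of 7 related lists; each point is 1 tested gene, coloured by its call, and the black bar is the list median. The medians run from -0.12 for the other hydrolases to 0.43 for the inhibitors of cathepsins, and every list has points on both sides of 0.

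Some of these genes lie in stretches of chromosomes whose genes were on balance higher or lower in shLTBP1. CTSL (chromosome 9 from 87725519 to 87731393, plus strand, hg38) and CTSV (97029679 to 97039643, minus strand) lie in a stretch where the 50 nearest tested genes, 25 on each side, had median log2 fold changes of 0.51 and 0.51. With these medians subtracted, CTSL was at 0.56 (limma adjusted p = 6.24e-05) and CTSV at -0.91 (limma adjusted p = 0.000117). Subtracting the neighbours in the same way for all genes left 15 of the 38 members higher and 9 lower, with 24.1% and 24.7% of all tested genes higher and lower. Of the rises, NEU1 (0.0445), NAGLU (0.11), ARSA (0.26), TPP1 (0.12), ATP6V0A1 (0.0466) and ATP6AP1 (0.12) no longer passed (limma adjusted p from 0.0547 to 0.507), and MAN2B1 passed as lower (-0.25, limma adjusted p = 0.00317). SGSH (1.23), CD68 (0.89), TFEB (0.85), CTSD (0.57) and GRN (0.56) stayed higher, and MITF (-1.15) and CTSC (-0.897) lower.

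**Figure D4:**
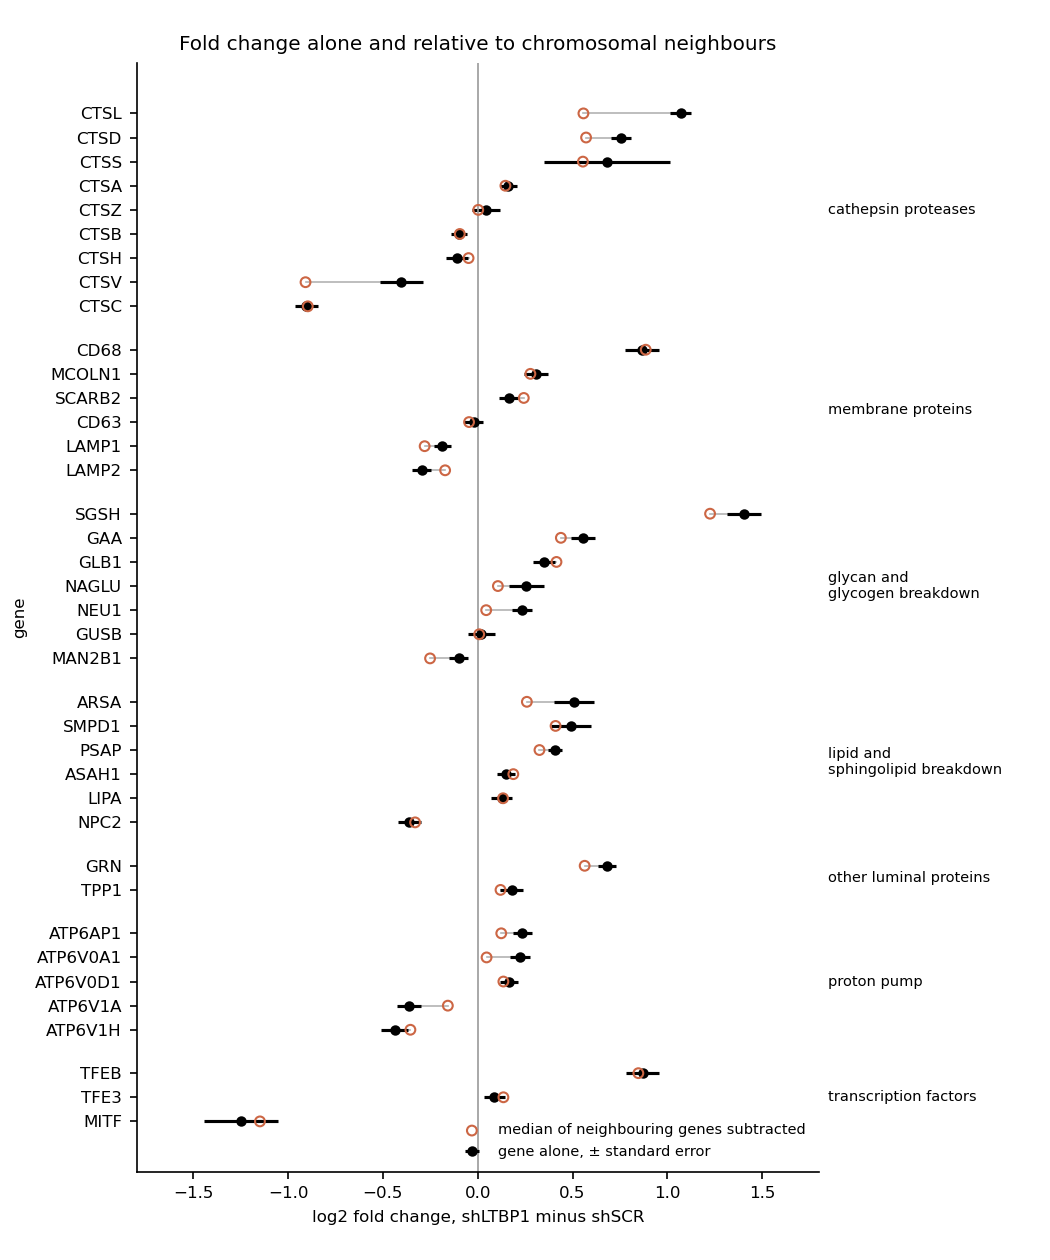
For each of the 38 tested lysosomal genes, the black point is the log2 fold change (shLTBP1 minus shSCR) with its standard error and the open point the same with the median of the 50 nearest tested genes subtracted. The longest distances between the points are those of CTSL and CTSV on chromosome 9, which both shift to the left by about the same length.

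Per length of transcript, lysosomal genes spanned more than 3 orders of magnitude. In normalized counts per kb of the principal transcript, the shSCR level was 10365 ± 222 for CTSD, 9707 ± 387 for LAMP1 and 9223 ± 98.1 for PSAP (SD, n = 3 each). CD63 followed at 6844 ± 142, and then CTSH, GRN, CTSA and NPC2 between 4388 and 3104. CTSB and CTSC were at 2392 ± 52.2 and 2144 ± 116. At the lower end stood SGSH at 141 ± 12.95, TFEB at 135 ± 3.59, MITF at 13.7 ± 0.755 and CTSS at 2.78 ± 0.414. Several neighbours in this order, such as SGSH and TFEB or GLB1 and TFE3 (617 ± 32.2 and 614 ± 24.7), differed by less than the larger of their SDs. In shLTBP1 the order at the top was CTSD, PSAP, LAMP1 and CD63, at 17522 ± 1158, 12238 ± 322, 8525 ± 224 and 6747 ± 374. CTSL went from place 16 to place 10 of the 39, CTSC from 10 to 15 and SGSH from 35 to 28.

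**Figure D5:**
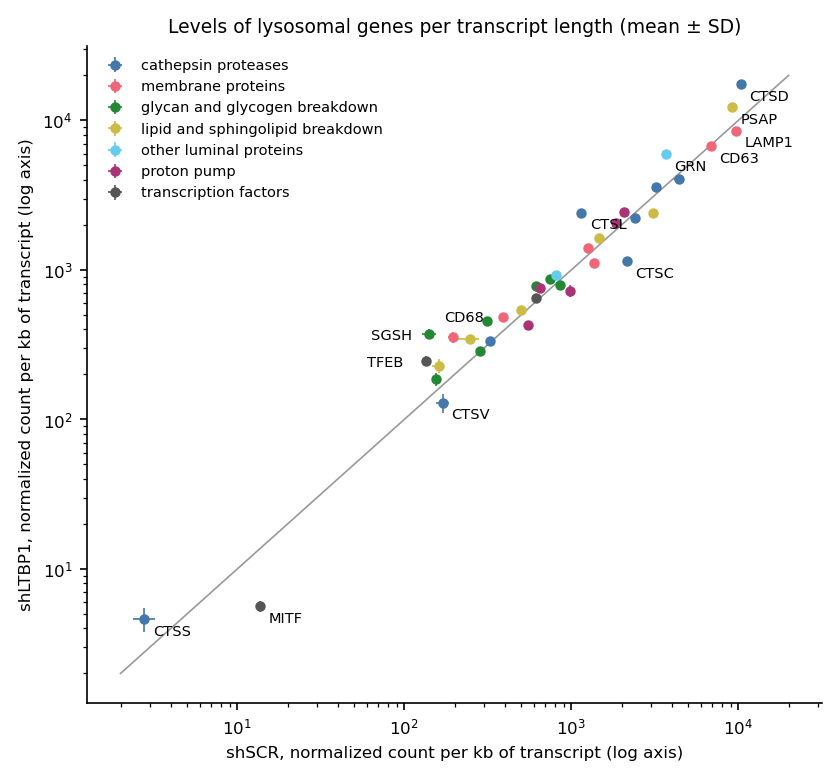
Levels of the 38 tested lysosomal genes in normalized counts per kb of principal transcript, shSCR on the horizontal and shLTBP1 on the vertical log axis (mean ± SD of 3 libraries), coloured by role; the line marks equal levels. SGSH, TFEB, CD68 and CTSL lie above the line, and CTSC, CTSV and MITF below it.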

How the data were processed

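RNA-seq libraries of MKN28 (3 per group, grouped and numbered by their titles) were made with a directional MGI kit, per the labels' protocols. The submitters' processing notes name STAR 2.7.3a and RSEM 1.3.1, besides FastQC 0.10.1, DESeq2 and the build hg38. Which annotation was counted, with which strand setting, is not given in the sources used here, so overlapping genes are uncertain. The deposited signal is a count per gene and library that the authors normalized with DESeq2, fractional and never negative. Low values were looked at for whole reads: 35.3% to 36.9% lay within 0.1 of a whole multiple of the commonest value near 1, so whole reads could not be recovered and a count model was not fitted. Depth per library is therefore unknown.

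Values were transformed to log2(value + 1), which understates the fold change of low genes. Genes with a mean of at least 10 over the 6 libraries were fitted with limma 3.58.1 in R 4.3.3 (group as the only term, 4 residual and 5.6 prior degrees of freedom, variance trend), and two-sided p-values were adjusted by Benjamini-Hochberg over 12789 genes at 0.05. The fit was checked on simulated data. Errors written after a log2 fold change are standard errors. The 39 members, the related lists and the marker lists were chosen with earlier results of these data known, so counts and medians describe them and no set test was run. The text names all members, LTBP1, the markers, and from each related list up to 2 genes that rose most and 2 that fell most. IGF2R and GALC were named in addition. Positions and the length of the principal (APPRIS) transcript came from GENCODE release 29 on GRCh38, which matched 19872 of 19960 identifiers. The alternatives were a pseudocount of 0.5 or 5, a minimum mean of 50 or none, upper quartile and TMM scaling, moderation without the trend, a replicate block, each library left out in turn, and, in every library, the median deviation of 25 tested genes on each side subtracted.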

Additional observations from a re-analysis of the deposited data

How the results depend on the processing

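The counts over all lysosomal genes, all related lists and all tested genes stayed within 1.5 times under each of the 15 alternatives: lysosomal genes called higher numbered 15 to 22 (21 as reported; 16 to 21 with 1 library left out) and lower 7 to 9 (8 as reported), the related lists 39 to 52 higher and 38 to 46 lower, and all tested genes 2883 to 3687 higher and 2945 to 3435 lower. The split of all calls moved most with upper quartile scaling, to 3687 higher and 3119 lower, with 22 and 8 for the lysosomal genes. Of 420 counts for single roles and lists, 399 stayed within 1.5 times. With the neighbour median subtracted, glycan enzymes went from 5 higher and 0 lower to 3 and 1, the proton pump from 3 higher to 1, other luminal proteins from 2 higher to 1, sorting genes from 4 higher to 2 and autophagy genes from 6 lower to 2. Without the trend, 1 luminal protein, 5 other pump subunits and 2 sorting genes were higher, and without a filter 2 sorting genes. With a minimum mean of 50, 2 inhibitors of cathepsins were higher and 0 transcription factors lower. LTBP1 passed throughout (log2 fold change -4.17 to -3.48). Of the 38 tested lysosomal genes 23 kept their side of the threshold in every alternative in which they were tested, and none changed direction while past it. Calls of the others changed as given in the report, and in addition NAGLU did not pass without a filter (limma adjusted p = 0.0553), SCARB2 and TPP1 without the variance trend (0.0583 and 0.0783), while CTSS passed there (0.0124). With the neighbour median subtracted, 2 genes of the related lists turned from lower to higher without passing, PPP3R1 to 0.0203 and ATG16L1 to 0.18; both lie on chromosome 2. RRAGB also did not pass without the trend (limma adjusted p = 0.0775).

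The replicate numbers of the groups gave no sign of pairing, with correlations of deviations of -0.0093, 0.058 and -0.00074 between libraries of the same number. With the number as a replicate block, 6755 genes passed against 6788, 6521 of them in both, and 21 lysosomal genes were higher and 8 lower (3347 and 3408 of all genes; 48 and 42 of the related lists; LTBP1 at -4.07), with no lysosomal call changed. With a minimum mean of 50, CTSS and MITF were not tested. Since depth is unknown, no counting error could be given for such low genes.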
